A study of Mus musculus with 3 samples.

Results

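Id1, Id2, Id3 and Id4 were measured in EpH4-PR cells, mouse mammary epithelial cells that carry a stably transfected progesterone receptor (PR), against a commercial mouse reference RNA. The members were every non-control probe that the array design names Id1 to Id4, and the RefSeq accessions of the probes gave the same 7. They were thus 4 of 15724 genes with a RefSeq match and 7 of 41174 probes. Id1, Id2 and Id4 had 2 probes each and Id3 had 1. The genes were selected on the ratios to the reference RNA that these same arrays had given, so their values are a description with no test.

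Inhibitor of DNA binding (Id) proteins have a helix-loop-helix domain but lack the basic region that contacts DNA. They pair with E proteins, the widely expressed basic helix-loop-helix (bHLH) factors, and keep them from E-box sites (CANNTG), which holds back differentiation genes and cell cycle inhibitors in many tissues. Their own genes are among the best known direct targets of the Bmp pathway, in which Bmp receptors phosphorylate Smads 1, 5 and 9 and these enter the nucleus with Smad4. In the mammary gland Id1 is best known from proliferating and invasive epithelial cells and Id2 from the alveolar cells of pregnancy.

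All 3 arrays held the same group. Total RNA came from EpH4-PR cells grown short of confluence in DMEM with serum, and per the methods the cells were selected as transfected clones and kept in G418. The study describes the receptor they express as its A form. EpH4-PR RNA was labelled with Cy5 and the reference, labelled as Stratagene mouse standard, with Cy3 on every array, so dye and sample cannot be told apart. Vector control cells (EpH4-EV) were not analysed here, and no value below is an effect of PR.

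The promoters of 3 of the 4 genes were found by symbol in a RefSeq table of assembly GRCm38.p6. They are shown because both the transcription factors that the Bmp pathway uses and the factors that Id proteins hold back read letters of this kind. Each line gives the 250 bases before the annotated start, 5′ to 3′ on the strand of the gene. Capitals mark GGCGCC, the letters of a GC-rich element bound by Bmp Smads, and any E-box match CANNTG. The Id2 stretch is chr12:25096093-25096342 on the minus strand, the Id3 stretch chr4:136143572-136143821 on the plus strand and the Id4 stretch chr13:48260866-48261115 on the plus strand.
Id2 promoter: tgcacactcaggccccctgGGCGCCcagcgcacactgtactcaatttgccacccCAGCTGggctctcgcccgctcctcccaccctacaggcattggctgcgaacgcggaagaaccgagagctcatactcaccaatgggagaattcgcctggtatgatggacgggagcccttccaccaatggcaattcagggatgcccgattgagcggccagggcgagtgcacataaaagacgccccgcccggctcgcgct
Id3 promoter: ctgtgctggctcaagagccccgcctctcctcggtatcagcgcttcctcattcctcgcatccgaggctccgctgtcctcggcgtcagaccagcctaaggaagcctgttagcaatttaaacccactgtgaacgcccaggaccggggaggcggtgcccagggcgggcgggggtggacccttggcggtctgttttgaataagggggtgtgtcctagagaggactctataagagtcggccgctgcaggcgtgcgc
Id4 promoter: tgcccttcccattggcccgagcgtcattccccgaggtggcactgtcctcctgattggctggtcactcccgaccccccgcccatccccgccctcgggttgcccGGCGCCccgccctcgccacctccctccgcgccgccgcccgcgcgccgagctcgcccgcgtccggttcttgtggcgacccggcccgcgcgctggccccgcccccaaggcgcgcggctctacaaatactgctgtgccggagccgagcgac
The search covered both strands. The Id2 stretch held 1 GGCGCC that began 231 bases before the start and 1 E-box match, CAGCTG, that began 196 bases before it. The Id4 stretch held 1 GGCGCC, 148 bases before the start, and the Id3 stretch held neither motif. GTCTG or its complement CAGAC, which contain the short Smad box, occurred 2 times in the Id3 stretch, 167 and 68 bases before the start, and 0 times in the other two. The narrower E-box CACGTG, itself one form of CANNTG, was in none of the 3. Of 32851 promoter stretches of the same length, 9.59% held GGCGCC, 42.2% held GTCTG on either strand, 66.2% held CANNTG and 6.02% held CACGTG. The G and C content was 62.8% for Id2, 62.8% for Id3 and 75.6% for Id4, against a median of 52.4% over those promoters. These matches are letters in a window and are no measure of binding.

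The arrays were much alike. Their log2 ratios correlated across probes with r between 0.923 and 0.952, and the median SD of a probe over the arrays was 0.09. Between 29603 and 30939 probes were well above background in Cy5 and between 32587 and 33261 in Cy3. Luminal markers were mostly higher than in the reference (8 of 10 called higher and 1 lower), with Cdh1, the epithelial adhesion molecule E-cadherin, at a log2 ratio of 4.29 ± 0.10 (SD, n = 3) and the luminal keratin Krt19 at -2.62 ± 0.18. Of the other marker lists, 11 of 12 mesenchymal, 3 of 6 blood, 0 of 7 basal, 0 of 6 endothelial and 0 of 6 brain genes were called lower by limma. These counts read each gene by its brightest probe. By the same call, defined below, 3.29% of all genes were higher and 6.55% lower. Beside that share, 0 of 6 or 0 of 7 says little. At an unadjusted p under 0.05, either direction and any size, 4 basal, 3 endothelial and 4 brain genes passed, as did 65.3% of all genes. The basal keratin Krt14 was called higher (2.08 ± 0.14), as the only 1 of the 7 basal genes. The median of the basal list was -0.05, with 3 genes above 0. For the basal gene Acta2, probe A_52_P210078 was called lower (-2.01 ± 0.15, adjusted p = 3.60e-05, limma). It was well above background in EpH4-PR cells on 1 array. The other Acta2 probes, at 0.60 for the brightest, -0.00 and -0.16, were not called. The 2 probes for Pgr, the gene of the transfected receptor, were each well above background in EpH4-PR cells on 1 of 3 arrays, and whether they lie within the transfected sequence is not given in the sources used here.

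Transcripts of Id2 and Id1 were lower in EpH4-PR cells than in the reference RNA on every array, that of Id3 was somewhat lower, and that of Id4 was close to the detection limit. The direction held for both Id2 probes under every setting tried, and for Id1 and Id3 under all but median centring, which is described below. Every other setting kept intensity-dependent normalization, except the scanner log ratio, in which the software had already corrected the intensities. Only median centring read Id1 and Id3 without either, and it turned their direction. All ratios are log2 of EpH4-PR over reference after background correction and intensity-dependent (loess) normalization, so -1 means a level in EpH4-PR cells of 50% of that in the reference. A call needed an adjusted p under 0.05 (limma, Benjamini-Hochberg) together with a log2 ratio of 1 or more in size. By that call 4 of the 7 Id probes, both of Id1 and both of Id2, were lower and 0 were higher, where 3.85% of all probes were called lower and 2.25% higher. Nothing is read from this count, since the ratios were known when the genes were chosen.

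Id2, the family member tied to alveolar differentiation, had the lowest ratios. Its probe A_52_P240542 gave log2 ratios of -3.35 on replicate 1, -3.43 on replicate 2 and -3.54 on replicate 3. Their mean was -3.44 ± 0.09 (SD, n = 3) with an SE of 0.05, or 10.9-fold less than in the reference. Its other probe, A_51_P219074, gave -2.12, -1.99 and -2.23, a mean of -2.11 ± 0.12 and a 4.32-fold lower level. The 3 values of each probe lay close together and those of the probes did not overlap. The first probe stood at the 0.229 percentile of the 25728 probes that were well above background for both samples, and the second at the 1.25 percentile.

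**Figure D1:**
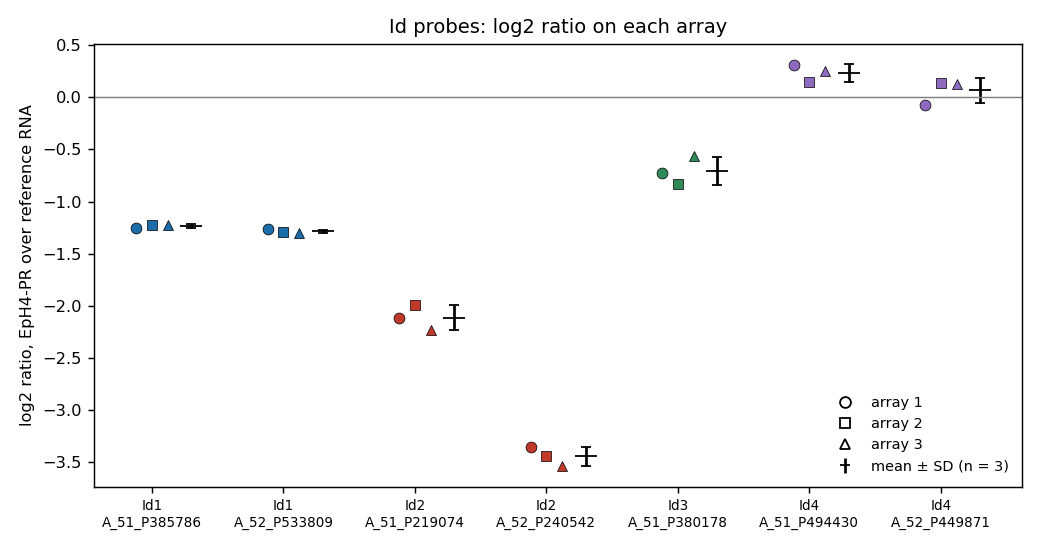
Log2 of the EpH4-PR level over that of the reference for each Id probe (horizontal axis), with 1 point per array and the mean ± SD over 3 arrays beside it. Both Id2 probes lie lowest, with means of -3.44 and -2.11, both Id1 probes lie near -1.2, Id3 lies at -0.71 and the Id4 probes lie around 0.

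The size of the Id2 difference thus depended on the probe. The gap between both probes was 1.24, 1.44 and 1.31 log2 units on the 3 arrays (mean 1.33 ± 0.10), and it stayed between 0.97 and 1.40 under all 11 processing settings. Of those settings, keeping outlier spots and scaling mean intensity between arrays could not move it. Both probes were well above background in both channels on 3 of 3 arrays. In the reference channel the mean spot intensity of A_52_P240542 was 1804, 1557 and 1807 and that of A_51_P219074 was 465, 405 and 431, whereas in the EpH4-PR channel they read 477, 368 and 409 and 209, 190 and 188. The probe sequences were not used here, and which transcript forms each probe reads was not tested.

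A probe outside the rule also bears on Id2. A_52_P94071 carries the name of the full-length clone AK013239, whose product is described as Id2, and the same clone accession is listed for A_51_P219074. Its log2 ratios were -0.24, -0.21 and -0.27 (mean -0.24 ± 0.03; 0.84 with median centring), higher than those of both Id2 probes on every array, and it read 708, 613 and 641 in the EpH4-PR channel. Probes that the array design ties to Id2 therefore covered means from -3.44 to -0.24.

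Id1, the member most often linked to proliferating epithelium, was lower than in the reference by a similar amount with both of its probes. Probe A_52_P533809 gave -1.27, -1.29 and -1.30 (mean -1.28 ± 0.02, 2.44-fold lower) and probe A_51_P385786 gave -1.26, -1.22 and -1.22 (mean -1.23 ± 0.02, 2.35-fold lower). The difference between the probes was 0.05 ± 0.03, so both read nearly the same ratio, with less spread over the arrays than at the other Id probes. Id1 was also bright, at 1925, 1733 and 1854 in the EpH4-PR channel and 1614, 1547 and 1618 in the reference channel for A_52_P533809.

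These intensities show how much the Id1 ratio owed to normalization. Before loess the log2 ratios of A_52_P533809 were 0.29, 0.20 and 0.22, slightly in favour of EpH4-PR cells, and those of A_51_P385786 were 0.28, 0.24 and 0.27. Loess, which sets the typical ratio at each brightness to 0, shifted the Id1 probes by 1.46 to 1.55 log2 units, the Id2 probes by 0.97 to 1.43, the Id3 probe by 0.92 to 1.12 and the Id4 probes by -0.09 to 0.30. With each array centred on its median in place of loess, Id1 read 0.11 and 0.08 and Id3 read 0.17, so that their direction turned, while Id2 stayed lower at -1.23 and -2.20. That setting called 7029 probes higher and 709 lower, against 928 and 1584 with loess. The Id2 probes were lower than the reference before loess as well, at -1.92, -2.09 and -2.13 for A_52_P240542 and -1.10, -1.02 and -1.12 for A_51_P219074.

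**Figure D2:**
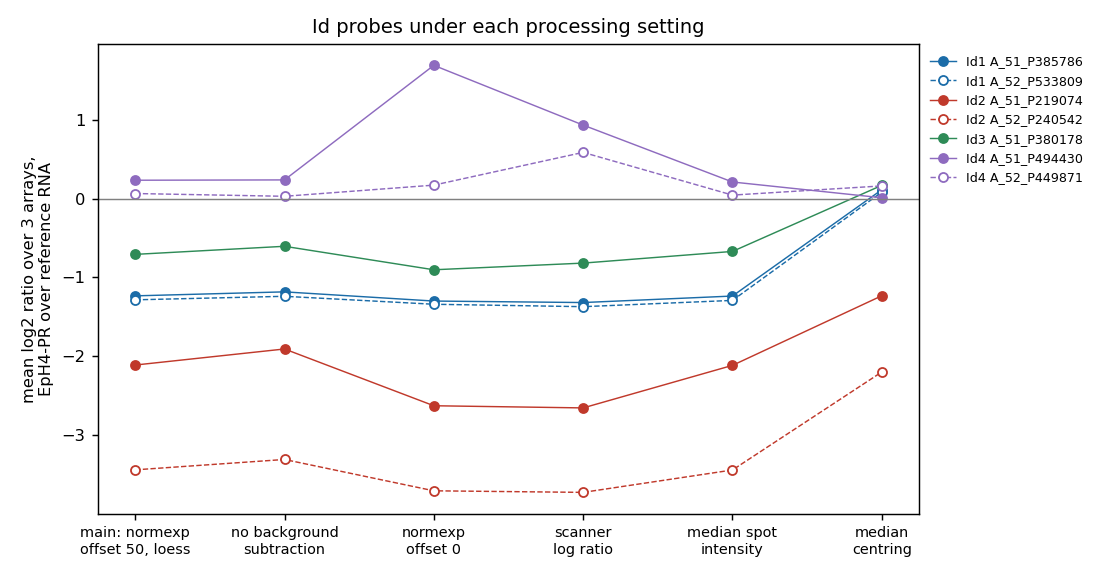
Mean log2 ratio of each Id probe over 3 arrays under 6 ways of processing the same spots, with lines that only join the points of a probe. Id2 lies below 0 under each of them, whereas Id1 and Id3 lie below 0 under 5 and slightly above 0 with median centring (0.11, 0.08 and 0.17). All but median centring and the scanner log ratio use loess.

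Id3, whose expression often runs with that of Id1, had a single probe, A_51_P380178. It gave log2 ratios of -0.73, -0.83 and -0.57, a mean of -0.71 ± 0.13 (SE 0.06) and a 1.63-fold lower level, which is within the limit of 1 set for a call. The array values spread more than those of Id1, and replicate 3 was the highest. Spot intensities were 353, 252 and 339 in the EpH4-PR channel and 319, 266 and 256 in the reference channel, above the 95th percentile of the 314 negative control spots in both channels of each array.

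Id4, the member known from neural and basal mammary cells, gave log2 ratios near 0 with both probes. A_52_P449871 gave -0.07, 0.14 and 0.13 (mean 0.06 ± 0.12) and A_51_P494430 gave 0.30, 0.14 and 0.25 (mean 0.23 ± 0.08), and the probes differed by 0.17 ± 0.19, within their spread. These ratios carry little information on level. In the reference channel A_52_P449871 read 153, 140 and 106, below the 95th percentile of the negative controls (162, 168 and 107), and A_51_P494430 read 92.6, 120 and 84.4, below their medians (119, 121 and 91.8).

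In the EpH4-PR channel the Id4 probes stood apart from each other. A_52_P449871 read 132, 131 and 109 where the 95th percentile of the negative controls was 85.9, 87.4 and 62.9, and so lay above it on all arrays. A_51_P494430 read 77.1, 89.6 and 70.9, above that level on replicates 2 and 3, and the scanner software put it well above its local background on 2 of 3 arrays in each channel. The ratio of a probe this dim moved with the background correction, and that of A_51_P494430 was 1.69 with a normexp offset of 0 in place of 50. A further probe outside the rule, A_51_P509824, named A330033J07Rik with a clone product described as Id4, gave 0.35, 0.18 and 0.21 (mean 0.25 ± 0.09).

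**Figure D3:**
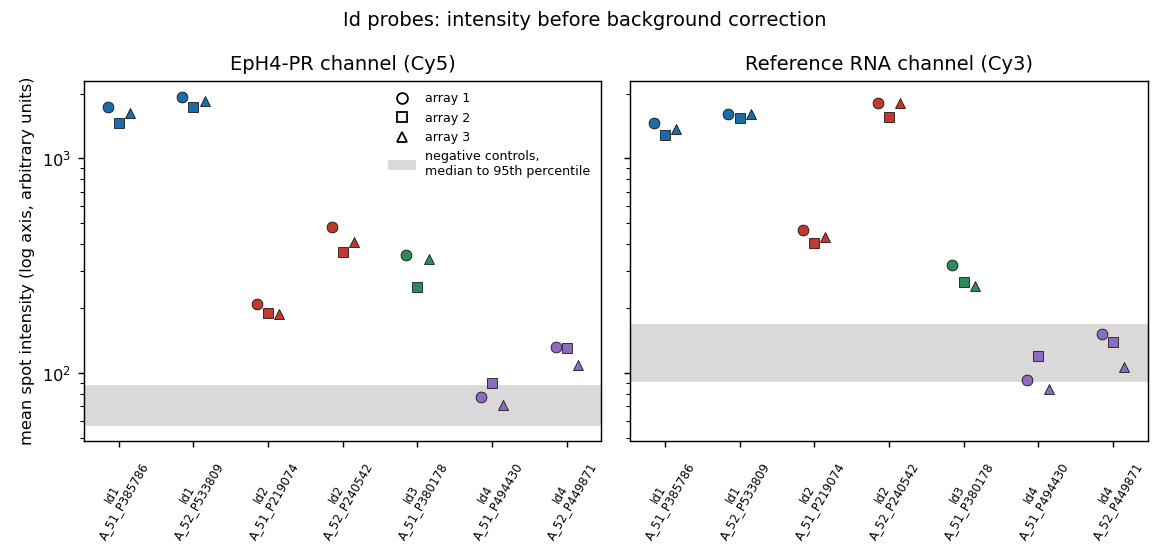
Mean spot intensity of each Id probe before background correction on a log axis, for EpH4-PR cells (left) and reference RNA (right), with 1 point per array. The grey band runs from the lowest median to the highest 95th percentile of the negative control spots over the arrays. Id1, Id2 and Id3 lie above it in both channels, whereas in the reference channel every Id4 value lies within or below it.

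Read by the brightest probe of each gene, the ratios of the 3 genes with signal in both channels ran from Id2 over Id1 to Id3, on each of the 3 arrays. This order describes the values on which the genes were selected and is not a test. Id1 exceeded Id2 by 2.09, 2.14 and 2.24 log2 units (mean 2.16 ± 0.08, a ratio of ratios of 4.46), and by 2.07 to 2.37 under all 11 settings with these probes. Here too, keeping outlier spots and scaling mean intensity between arrays could not move the gap. The choice of probe moved this gap more than any of those settings did. With the other Id2 probe, A_51_P219074, it was 0.85, 0.70 and 0.93 (mean 0.83 ± 0.12, a ratio of ratios of 1.77), and against the clone probe AK013239 it turned to -1.03, -1.08 and -1.03. Id3 exceeded Id1 by 0.54, 0.46 and 0.73 (mean 0.58 ± 0.14), and by 0.09 with median centring. The array values of Id3 did not overlap with those of Id1, nor those of Id1 with those of either Id2 probe. Id4 was given no place, since its reference signal lay in the range of the negative controls. The order is one of ratios to the reference and not of transcript levels among the Id genes.

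The partners and antagonists of Id proteins were taken from lists drawn up by known function, with the brightest probe standing for a gene. Earlier results of these data were known when the lists were drawn up. Their counts and the p-values of their genes are therefore a description too. Over all 85 genes of the partner and pathway lists, 2 were called higher and 9 lower, with a median log2 ratio of -0.10, while 3.29% of all genes were called higher and 6.55% lower and their median was -0.02. E proteins, the direct partners that Id proteins sequester, were all detected. Of the 3, Tcf4 was called lower and none higher, with a median of -0.71.

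Tcf4 (E2-2) gave a mean log2 ratio of -2.09 ± 0.09 with its brightest probe (adjusted p = 2.01e-05, limma) and -1.34 ± 0.07 with another (adjusted p = 4.18e-05), and its other probe gave -0.03 ± 0.04. Tcf12 (HEB) gave -0.71 ± 0.05 and 0.19 ± 0.14 with its 2 probes. Tcf3 (E12 and E47, listed on the array as Tcfe2a) gave -0.17 ± 0.10 and 0.41 ± 0.18. With median centring Tcf4 stayed below 0 with all its probes, whereas the negative Tcf12 and Tcf3 probes turned to 0.60 and 0.98.

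Of 29 tissue-restricted bHLH activators, which pair with E proteins at E-boxes, 1 was called higher and 2 lower, with a median of -0.09. Only 15 of them were well above background in EpH4-PR cells on all arrays and 9 were so on none. The tendon factor Scx was higher (1.84 ± 0.04, adjusted p = 1.91e-05), and the blood factor Lyl1 (-2.03 ± 0.19, adjusted p = 5.16e-05) and the mesenchymal factor Twist2 (-1.66 ± 0.05, adjusted p = 2.39e-05) were lower. Of 11 bHLH repressors only Hey1, a Notch and Bmp target, was called, at -1.04 ± 0.02 (adjusted p = 5.33e-05), and the median was -0.01. With no background subtraction or with median centring Hey1 was no longer called.

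Of 4 cell cycle inhibitors activated by E proteins, 2 were called lower and none higher, beside 6.55% and 3.29% of all genes. With so few genes nothing is read from this count. Cdkn2b (p15) gave -2.76 ± 0.26 (adjusted p = 4.62e-05) and Cdkn2a (p16 and p19) gave -1.26 ± 0.27 (adjusted p = 0.000516), which was -0.99 and no longer called with no background subtraction. Cdkn1a (p21), outside the rule and named after its value was seen, gave -0.99 ± 0.08 (adjusted p = 0.000106), just within the limit of 1. The list median was -1.12.

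Upstream of the Id genes, none of 13 Bmp ligands, 7 Bmp receptors or 4 Smads (Smad1, Smad5, Smad9 and Smad4) was called by limma in either direction with its brightest probe, nor by the methods' t-test. The nearest was the ligand Bmp7, named after its values were seen, whose brightest probe gave -0.83 ± 0.09 (adjusted p = 0.000209) and whose other probe was called lower at -1.02 ± 0.19 (adjusted p = 0.000407). Their medians were -0.09, -0.01 and -0.11. At an unadjusted p under 0.05 and any size, 5 ligands, 3 receptors and 3 Smads passed, where 65.3% of all genes did so. Among the ligands, 5 were well above background in EpH4-PR cells on no array. With a normexp offset of 0 or the log ratio of the scanner software 2 ligands were called lower, and with median centring 2 Smads were called higher.

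Of 14 other Bmp target genes, 1 was called higher and 3 lower, with a median of -0.40. Of all genes 3.29% were called higher and 6.55% lower. Msx2, the homeobox gene at the centre of the study, had the highest ratio of them at 1.83 ± 0.20 (n = 2, adjusted p = 0.000306), because its spot on replicate 2 was marked as an outlier and left out. The spot of the reference was well above background on 2 arrays, and with the log ratio of the scanner software its adjusted p was 0.108. Grem1, a secreted Bmp antagonist, was lower (-2.08 ± 0.12, adjusted p = 2.53e-05), as was the T-box factor Tbx3 with its brightest probe (-1.11 ± 0.17, adjusted p = 0.00025), while its other probe gave 0.10 ± 0.09.

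The third, Dlx2, a homeobox gene named after its value was seen, was not well above background in EpH4-PR cells on any array and was at least 2.82-fold higher in the reference (adjusted p = 0.000104, limma). This bound sets the mean signal of the reference against the higher, on each array, of the lowest signal well above background and the signal of the probe itself. The inhibitory Smads, feedback targets that are induced together with Id genes by Bmp, were near 0 after loess. Smad6 gave -0.07 ± 0.06 (adjusted p = 0.25) and Smad7 gave 0.07 ± 0.22 (adjusted p = 0.55). The Smad7 probe was bright, with a mean log2 intensity over both channels of 8.63. Loess shifted the clone probe AK013239, at 8.83, by 1.19 to 1.26 log2 units, so the Smad7 value rests on that step. By the Id probes of the rule, Id1 and Id2 thus lay on one side of the reference and Msx2 on the other. With median centring Id1 was slightly above the reference too, as it was before loess, and the clone probe AK013239 read 0.84. The ratios were known when the genes were chosen, so this contrast is a description.

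**Figure D4:**
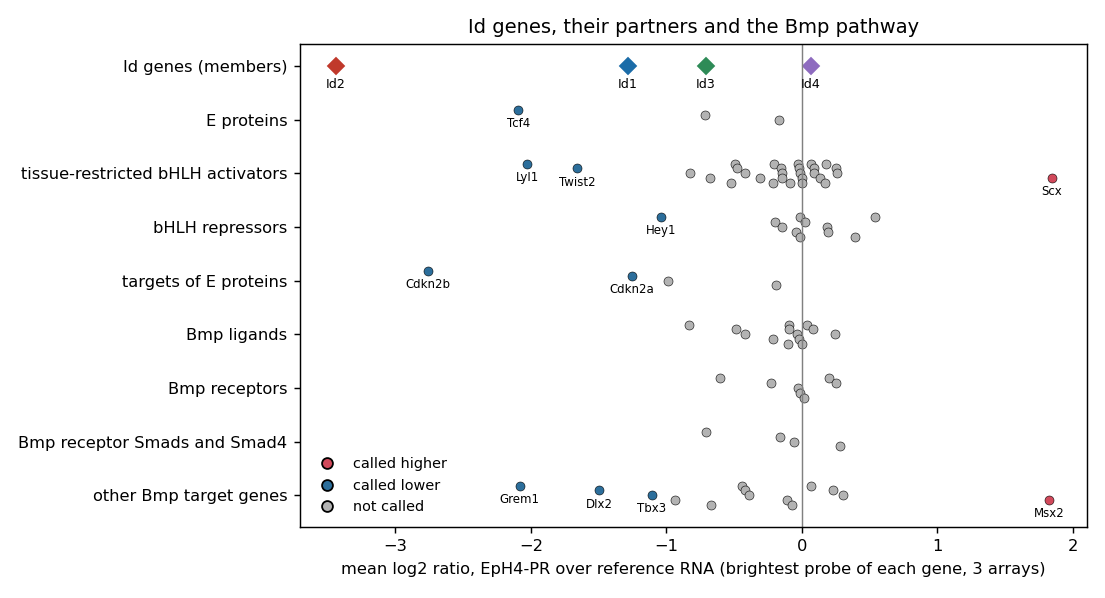
Mean log2 ratio to the reference over 3 arrays (2 for Msx2) for the brightest probe of each gene, in rows by list, with the Id genes as diamonds on top. Filled colour marks genes called higher or lower, which are named. Most partner and pathway genes lie near 0, with Scx (1.84) and Msx2 (1.83) to the right and 9 genes called lower to the left.

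The makeup of the reference RNA is not given in the sources used here, and a low ratio cannot tell a low level in EpH4-PR cells from a high level in the reference. Mesenchymal markers, which epithelial cells make little of, were low beside the Id genes. Their 12 log2 ratios ran from -6.51 to -0.83 with a median of -3.18, and all 12 were well above background in EpH4-PR cells on 3 arrays. Blood markers were low as well, with 3 of 6 called lower and a median of -1.22. The brightest probe of the pan-leukocyte marker Ptprc was well above background in EpH4-PR cells on no array and at least 19.8-fold higher in the reference (adjusted p = 1.10e-05, limma), although another of its probes was well above background there on 3 arrays (-1.40 ± 0.06). Of the 6 endothelial markers 3 were well above background in EpH4-PR cells on no array, and their median was -0.04. The part of any of these in the Id ratios was not tested.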

How the data were processed

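For every array the authors deposited the spot table of the scanner software (Agilent Feature Extraction 8.1.1.1), with a mean and median spot intensity and a local background intensity per channel. The same deposited tables hold a log10 ratio of the channels, Cy5 over Cy3, which was turned to log2 for an alternative. They also deposited a table of fold changes, ratios and p-values between 2 unnamed sides, which was not used. The array analysis is cited by the study from earlier work.

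Spots (43790 per array, 41534 of them not controls) were corrected with normexp (offset 50) on mean intensity and local median background and normalized by loess within each array, with control spots at weight 0, in limma 3.58.1 (R 4.3.3). Outlier spots (150, 18 and 3) were left out and spots of a probe averaged. The mean log2 ratio of each probe was compared with 0 by lmFit and eBayes, with Benjamini-Hochberg adjustment over 41174 probes. The code was tested on simulated data. A gene was read from its probe of highest mean intensity. RefSeq accessions gave current symbols for 21445 of 23705 probes that carry one. EpH4-PR was Cy5 on every array with no dye swap, so dye bias was not cancelled. Each array was on a slide of its own and held the same group, so no batch could be compared. Whether the 3 replicates were separate cultures is not given in the sources used here, so SDs and p-values measure the spread between arrays, which may be technical, and their number limits the precision.

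The Id genes and the gene lists were chosen with earlier results of these data known. The text names all Id probes, Tcf3, Tcf4, Tcf12, Smad6, Smad7 and Msx2, and, from each list, up to 3 highest and 3 lowest of the called genes whose probe exceeded background for both samples on every array, with all probes of a gene. Of these, only the markers Cdh1, Krt19 and Krt14 are printed for the marker lists. The blood marker Ptprc is printed too, although it falls outside the rule and had the lowest ratio of its list. So is the basal marker Acta2, outside the rule and named after its values were seen. Alternatives changed the background correction, normalization, spot summary, outlier spots, dim probe filter, variance prior, test, probe rule and arrays used.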

Additional observations from a re-analysis of the deposited data

How the results depend on the processing

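No paired analysis was possible because all arrays hold 1 group. Without replicates 1, 2 or 3 in turn, the ranges were -1.24 to -1.22 and -1.29 to -1.28 for the Id1 probes, -2.17 to -2.05 and -3.49 to -3.39 for Id2, -0.78 to -0.65 for Id3, 0.20 to 0.28 and 0.03 to 0.13 for Id4 (second value A_52_P449871), 924 to 944 probes called higher, 1587 to 1613 lower, and 9 to 11 partner and pathway genes lower. Between genes they were 2.12 to 2.19 (Id1 above Id2), 0.50 to 0.64 (Id3 above Id1) and 0.67 to 0.83 (Id4 above Id3, where the Id4 reference signal lay in the range of the negative controls). With the other Id2 probe, chosen after seeing the data, Id1 was 0.83 above Id2.

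With median centring the Id ratios were 0.11 and 0.082 (Id1), -1.23 and -2.20 (Id2), 0.17 (Id3) and 0.011 and 0.16 (Id4), the differences 2.28, 0.086 and -0.0073, with 6 pathway genes higher and 7 lower, and 7029 probes higher and 709 lower, so that 90.8% of calls were higher against 36.9%. Smad6 (0.18), a Tbx3 probe (-0.15), a Tcf12 probe (0.60) and a Tcf3 probe (0.98) changed sign too, as did Smad7 (-0.014 to 0.19 with 1 replicate left out, lowest without replicate 1). With a normexp offset of 0 they were -1.30 and -1.34, -2.63 and -3.71, -0.90, and 1.69 and 0.17, the differences 2.37, 0.44 and 1.07, with 3 and 21 pathway genes and 3115 and 3909 probes. With the log ratio of the scanner software they were -1.32 and -1.37, -2.66 and -3.73, -0.82, and 0.93 and 0.59, the differences 2.36, 0.55 and 1.41, with 3 and 18 pathway genes and 3616 and 3887 probes, 48.2% of calls higher. With no background subtraction they were -1.18 and -1.24, -1.91 and -3.31, -0.61, and 0.24 and 0.03, the differences 2.07, 0.63 and 0.63, with 2 and 6 pathway genes and 684 and 1304 probes.

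Median spot intensity moved no Id ratio beyond its SD. Outlier spots kept and quantile scaling of mean intensity between arrays left the Id ratios unchanged and could not do otherwise. No Id spot was marked as an outlier, and that scaling does not act on ratios. Among probes well above background 1 pathway gene was higher, as by the t-test in place of limma after Benjamini-Hochberg. That test called 925 probes higher and 1583 lower before adjustment, 893 and 1552 after. The cause of these changes was not tested. Negative controls read above the local background, which limits Id4.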
